A study of Mus musculus with 6 samples.

Results

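Genes of the cell division cycle were read out in whole MCA205 tumors. The set held 55 genes, chosen by name as well known genes of DNA replication or of mitosis. The rule uses no measured value, but it was written with earlier results of these data known. Of these, 25 act in S phase and 30 in G2 and mitosis, and these are described apart. All 55 were found among the 54309 gene identifiers of the table, and all passed the minimum for testing, a mean of 10 normalized counts, as did 13963 genes in all. MCA205 is a fibrosarcoma cell line of C57BL/6 mice. Its cells were inoculated under the skin of C57BL/6J mice, all female and 7 weeks old. FF-10101 is a kinase inhibitor of CSF1R, the receptor through which macrophages receive their survival signal, and of FLT3. The control group (n = 3) drank milliQ water and the FF-10101 group (n = 3) received the inhibitor at 0.1 mg/mL in the water from day 1, and all tumors were taken on day 8. Each value comes from all cells of 1 tumor, so fewer dividing cells and less RNA of these genes per cell cannot be told apart.

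A cell that commits to division first raises cyclin E and the activator E2F factors, which turn on the genes of DNA replication. The MCM helicase is loaded onto origins with CDC6 and CDT1, GINS joins it to make an active helicase, and polymerase alpha with primase, PCNA, FEN1 and DNA ligase I copy the strands, fed with nucleotides by ribonucleotide reductase and thymidylate synthase. Later, another wave of genes driven by the B-MYB and FOXM1 factors supplies cyclins A and B, CDK1, the mitotic kinases, kinesins and kinetochore proteins. In tumors, these transcripts are known as a proliferation signature, to which tumor cells and dividing immune or stromal cells can contribute.

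Total reads per tumor ranged from 9143806 to 13258258. Values are given as normalized counts, the reads of a tumor over its size factor. Control tumor 1 stood apart from the other two control tumors in several cell type marker lists. Summed T cell markers were 2671 in control tumor 1, 929.6 and 1044 in the other two control tumors, and 1292 to 2445 in the FF-10101 tumors. Summed endothelial markers were 5434 in control tumor 1, 1641 and 2184 in the other two control tumors, and 5395 to 5916 in the FF-10101 tumors. In both lists, control tumor 1 lay with or near the FF-10101 tumors rather than with its own group. Its neutrophil sum lay between those of the other two control tumors, and its macrophage sum was the highest of all 6 tumors and furthest from the FF-10101 tumors. Counts of calls are therefore given with this tumor and without it.

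Each of the 55 cell cycle genes had a lower mean in the FF-10101 tumors than in the control tumors, but none passed the test. On the log2(normalized count + 1) scale the fold changes ran from -1.15 in *Mybl2* to -0.079 in *Cenpe*. The median was -0.69 over the 25 S-phase members and -0.67 over the 30 mitotic members, against 0.020 over all genes tested. A fold change below 0 was found in 48.1% of all genes tested. At an adjusted p of 0.05 (limma, Benjamini-Hochberg over all genes), 0 of 55 members were called, beside 0.043% of all genes called in either direction and 0.0143% called lower. The lowest adjusted p among the members was 0.229. At an unadjusted p of 0.05 in limma, 30 of 55 members were lower, 13 S-phase and 17 mitotic, beside 7.49% of all genes. With limma-voom on the recovered reads, 0 members passed the adjusted and 29 the unadjusted threshold, beside 7.22% of all genes lower at the latter.

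The count of calls turned on control tumor 1. Without it, 43 of 55 members were lower in the FF-10101 tumors at an adjusted p of 0.05 (limma), beside 9.88% of all genes. These were 17 of 25 S-phase and 26 of 30 mitotic members, with medians of -0.83 and -0.93. The members that did not pass were *Mcm3*, *Mcm4*, *Mcm6*, *Cdc6*, *Fen1*, *Lig1*, *Brca1*, *Rrm1*, *Plk1*, *Cenpe*, *Mki67* and *Top2a*. With array weights, which give each tumor a weight from its residuals, all 55 members passed, and so did 27.9% of all genes in the same direction. The weights were 8.08 for FF-10101 tumor 2 and 5.39 for control tumor 2, while the other four were 0.14 (control tumor 1) to 0.86, so this fit leaned largely on 1 tumor of each group. Leaving out 1 tumor at a time moved 19 of the 55 fold changes by over 1.5 times and turned the sign of 3, *Cenpe*, *Hmmr* and *Mki67*. Leaving out any single tumor but control tumor 1 gave 0 calls among the members, and without control tumor 1 only 2 control tumors remain.

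**Figure D1:**
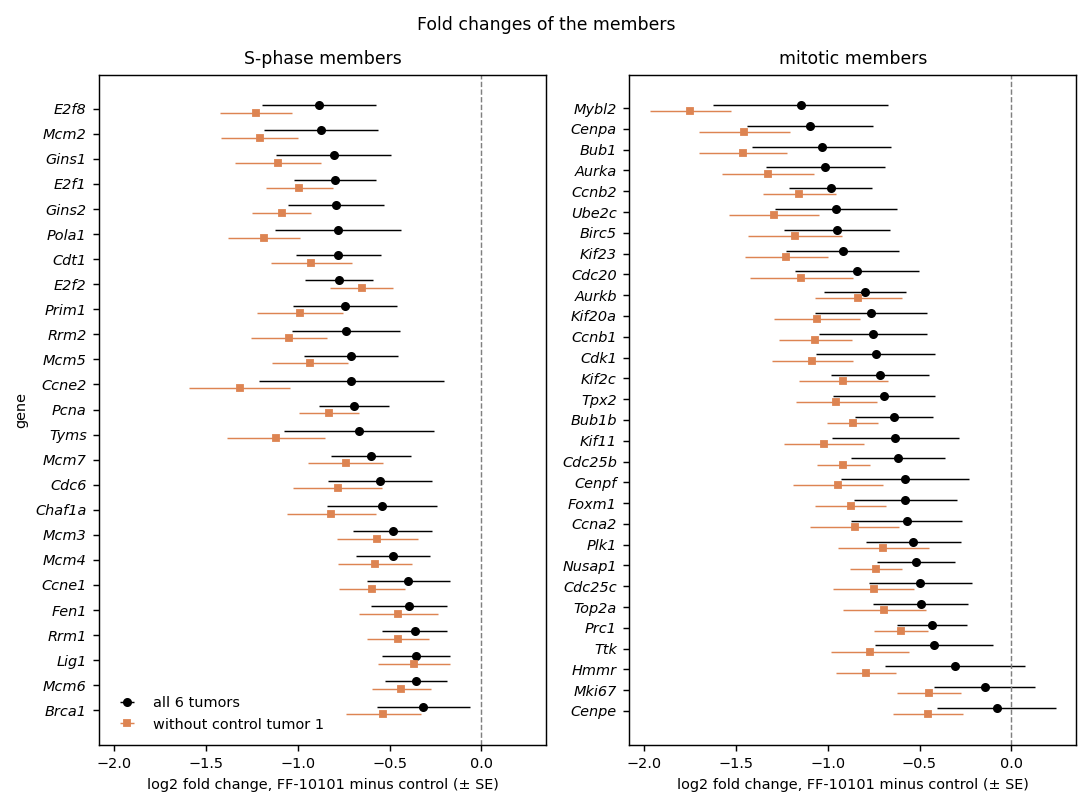
Log2 fold change of each member, FF-10101 minus control, with its standard error (bars), S-phase members at left and mitotic members at right. Black circles use all 6 tumors and orange squares leave out control tumor 1, and all points lie below 0 (dashed line).

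Promoters were read for what the members share in sequence, since the members varied together from tumor to tumor. RefSeq promoter windows (GRCm38.p6, 250 bases before to 50 after a start) were given for 45 members, in 51 windows, and none was used for *Ccne2*, *Mcm4*, *Gins1*, *Gins2*, *Ccna2*, *Cdc25c*, *Foxm1*, *Aurkb*, *Kif20a* and *Tpx2*. The letters searched, on both strands, were TTTCCCGC, TTTCGCGC, TTTGCCGC and TTTGGCGC for the E2F site, TTTGAA and TTCGAA for the cell cycle homology region (CHR), the element known from mitotic promoters, and CCAAT for the CCAAT box. Words could overlap each other. E2F letters were in 9 of 26 S-phase windows (34.6%) and 1 of 25 mitotic windows (4%), against 2.26% of the 32851 windows of all genes. CHR letters were in 5 S-phase windows (19.2%) and 20 mitotic windows (80%), against 19.2% of all windows. Within 50 bases of the start, a range set after the matches were seen, CHR letters were in 72% of mitotic and 7.69% of S-phase windows, against 5.31% of all. A CCAAT box was in 61.5% of S-phase and 84% of mitotic windows, against 37.4% of all, and 2 or more were in 23.1%, 52% and 11.7%. A match is a description of letters and not of a bound site.

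The stretches below show the letters in capitals, from 160 bases before to 30 after the start, 5′ to 3′ on the strand of the gene, and positions count from the start. They were chosen to show the arrangements found. *Cdc6* (chr11:98907991-98908180, plus strand), *Pola1* (chrX:93632126-93632315, minus strand) and *Mcm6* (chr1:128359676-128359865, minus strand) show E2F letters, which in *Cdc6* and *Pola1* begin at position -138. *Cdk1* (chr10:69352883-69353072, minus strand), *Cdc20* (chr4:118437314-118437503, minus strand), *Ccnb2* (chr9:70421525-70421714, minus strand) and *Ube2c* (chr2:164769769-164769958, plus strand) show CHR letters near the start, downstream of at least 1 CCAAT box. *Cdk1* was the only mitotic member with E2F letters in its window. The windows of the mitotic members *Mybl2*, *Birc5* and *Nusap1* and of the S-phase members *Ccne1*, *E2f1* and *Tyms* held none of the 3 kinds of letters. The first 30 bases of a GENCODE vM21 transcript lay in 38 of the 51 windows. The windows of *Mybl2*, *E2f1* and *Mcm6* were among those without them. Letters absent from such a window say little of the promoter of that gene.
*Cdc6*: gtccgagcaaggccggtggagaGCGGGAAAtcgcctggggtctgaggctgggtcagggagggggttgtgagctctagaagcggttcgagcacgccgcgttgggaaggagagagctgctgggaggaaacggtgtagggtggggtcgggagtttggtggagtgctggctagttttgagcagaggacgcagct
*Pola1*: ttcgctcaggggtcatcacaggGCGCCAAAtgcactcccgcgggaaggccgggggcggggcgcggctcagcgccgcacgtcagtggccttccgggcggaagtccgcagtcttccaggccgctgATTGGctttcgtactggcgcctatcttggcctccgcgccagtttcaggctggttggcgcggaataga
*Mcm6*: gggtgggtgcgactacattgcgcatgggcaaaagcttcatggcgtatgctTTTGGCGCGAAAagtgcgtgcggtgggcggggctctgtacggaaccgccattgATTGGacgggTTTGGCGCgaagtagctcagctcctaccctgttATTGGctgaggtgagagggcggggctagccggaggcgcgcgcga
*Cdk1*: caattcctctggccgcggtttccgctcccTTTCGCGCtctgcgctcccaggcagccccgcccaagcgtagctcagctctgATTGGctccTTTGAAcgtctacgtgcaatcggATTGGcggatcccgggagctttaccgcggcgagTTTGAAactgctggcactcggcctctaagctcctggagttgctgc
*Cdc20*: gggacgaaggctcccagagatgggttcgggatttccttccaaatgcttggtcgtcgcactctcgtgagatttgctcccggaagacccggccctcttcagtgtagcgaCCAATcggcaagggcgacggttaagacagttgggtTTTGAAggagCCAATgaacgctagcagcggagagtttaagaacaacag
*Ccnb2*: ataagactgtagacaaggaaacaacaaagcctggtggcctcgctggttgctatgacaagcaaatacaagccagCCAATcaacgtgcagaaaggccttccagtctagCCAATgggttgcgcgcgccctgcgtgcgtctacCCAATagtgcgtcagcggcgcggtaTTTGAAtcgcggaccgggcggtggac
*Ube2c*: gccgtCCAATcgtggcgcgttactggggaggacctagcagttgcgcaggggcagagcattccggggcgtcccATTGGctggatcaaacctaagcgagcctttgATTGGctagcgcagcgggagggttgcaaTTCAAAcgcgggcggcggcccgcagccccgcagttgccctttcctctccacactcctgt

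Among the 5 S-phase entry genes, those of the E2F factors had the fold changes furthest from 0 with all tumors, and *Ccne2* had the one furthest from 0 without control tumor 1. *E2f1*, an activator of replication genes, was at 476, 655 and 786 normalized counts in control tumors 1, 2 and 3 and at 430.0, 308 and 352 in FF-10101 tumors 1, 2 and 3, so the groups did not overlap. Its means were 639 ± 156 and 363 ± 61.6 (SD, n = 3), with a log2 fold change of -0.80 ± 0.22 (SE) and an adjusted p of 0.229 (limma). *E2f2*, another activator, was at 301, 219.5 and 246 in the controls and at 149, 149 and 145 under FF-10101, and was the only member highest in control tumor 1. Its fold change was -0.78 ± 0.19 with control tumor 1 and -0.65 without it, while those of the other four genes of this group were further from 0 without that tumor. *E2f8*, a repressor that closes the E2F wave, was at 170.0, 368 and 326 against 172, 124 and 151, and control tumor 1 lay inside the FF-10101 range. *Ccne2*, a cyclin E gene, varied most among the controls, at 133, 352 and 634, against 225, 152 and 198. Its fold change of -0.71 ± 0.50 became -1.32 without control tumor 1, with an adjusted p of 0.0151 in limma, and -0.19 without control tumor 3. *Ccne1*, the other cyclin E gene, was nearer to the controls at -0.40.

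The 10 genes of origin licensing and of the helicase were all in the lower direction, from -0.88 (*Mcm2*) to -0.36 (*Mcm6*), with a median of -0.66. The 6 MCM genes encode 1 ring, yet their fold changes were spread. *Mcm2* was at 604, 1249 and 1169 in the controls and 704, 454 and 445 under FF-10101, whereas *Mcm6* was at 1269.7, 1424 and 1574 and 1324, 982 and 1043. For both, control tumor 1 lay within the FF-10101 range. *Mcm5* (-0.71) and *Mcm7* (-0.60) lay between them, as did *Mcm3* and *Mcm4* (both -0.48). Without control tumor 1, *Mcm2* reached -1.21 (adjusted p = 0.00819, limma) and *Mcm6* -0.44 (adjusted p = 0.0905).

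The loaders and GINS subunits held 3 of the 10 members in which every FF-10101 tumor was below every control tumor, beside 9.37% of all genes. *Cdt1*, which brings the helicase to origins, was at 428, 555 and 606 in the controls and at 402, 289 and 244 under FF-10101, with a fold change of -0.78 ± 0.23 and an adjusted p of 0.229 (limma). *Gins2* was at 458, 775 and 921 against 435, 410.4 and 349, with -0.79 ± 0.26. *Gins1*, its partner in the same complex, was at 119, 205 and 248 against 119, 117 and 80.9, where control tumor 1 and FF-10101 tumor 1 were within 1 normalized count of each other. *Cdc6*, the second loading factor, overlapped between groups and had a fold change of -0.55.

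Of the 7 genes of strand synthesis, chromatin assembly and repair, *Pcna* alone did not overlap between groups, beside 9.37% of all genes in that direction. *Pcna*, the sliding clamp of the replicative polymerases, was at 2068, 2466 and 3086 in the controls and 1816, 1445 and 1419.5 under FF-10101. Its means were 2539.8 ± 513 and 1560.2 ± 222 (SD, n = 3), a log2 fold change of -0.69 ± 0.19 with an adjusted p of 0.229 in limma. *Pola1* and *Prim1*, of the polymerase alpha and primase complex, had fold changes of -0.78 and -0.74, and for *Pola1* control tumor 1 (214) was below FF-10101 tumors 1 and 3. *Lig1*, which seals Okazaki fragments, was almost level among the controls at 659.6, 675 and 676. Under FF-10101 it was at 676, 468 and 452, so that FF-10101 tumor 1 was level with the controls while tumors 2 and 3 were below them. *Lig1* was the only member whose FF-10101 tumors were not all below control tumors 2 and 3. *Fen1*, the flap nuclease, showed a similar order, at 529, 609.6 and 587 against 569.7, 429 and 341. *Chaf1a*, a histone chaperone, and *Brca1*, of homologous recombination, had fold changes of -0.54 and -0.32. On leaving out single tumors they ran from -0.82 to -0.40 and from -0.54 to -0.16, both lowest when control tumor 1 was left out.

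The 3 genes of nucleotide supply were not alike in size. *Rrm2*, the ribonucleotide reductase subunit made in S phase, was at 672, 1306 and 1259 in the controls and 824, 559 and 516 under FF-10101 (-0.74 ± 0.29). *Rrm1*, the longer-lived subunit of the same enzyme, was at 1175, 1402 and 1435 against 1269, 897 and 977 (-0.36 ± 0.18). *Tyms*, thymidylate synthase, spread widely among the controls, at 440.1, 952 and 1343, and was at 747, 460.3 and 409 under FF-10101. Control tumor 1 lay within the FF-10101 range for all 3 genes. Without that tumor, *Rrm2* and *Tyms* passed at -1.05 and -1.12, with adjusted p of 0.0121 and 0.0236 in limma, beside 9.88% of all genes called lower. Leaving out control tumor 3 instead, *Tyms* was at -0.32.

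**Figure D2:**
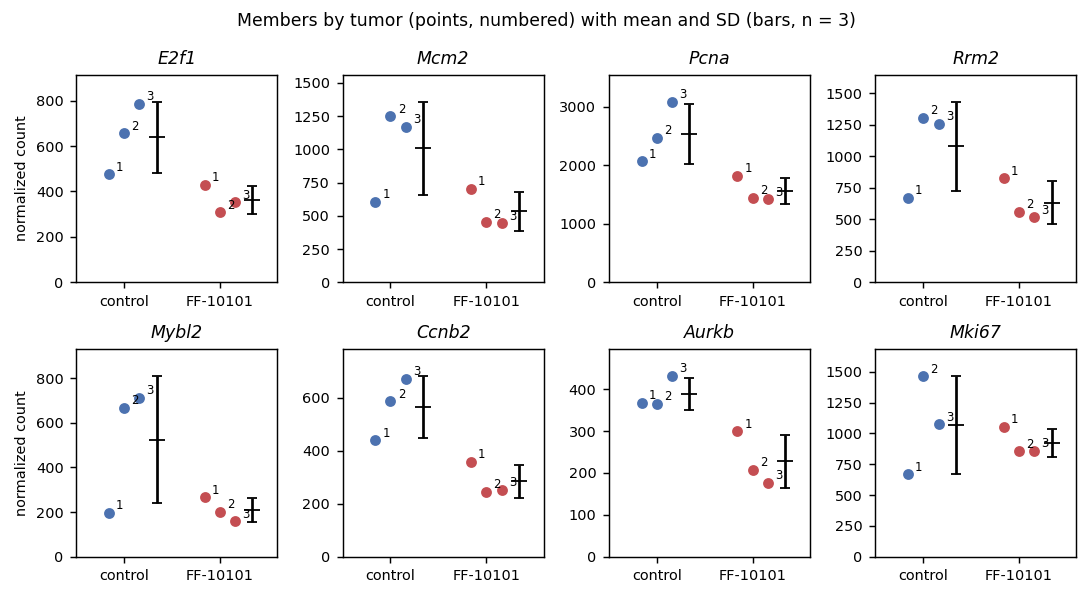
Normalized counts of 4 S-phase members (top) and 4 mitotic members (bottom) in each tumor (points, numbered by tumor, on axes that start at 0) with the mean and SD of each group (bars, n = 3). Control tumor 1 lies within the range of the FF-10101 tumors in *Mcm2*, *Rrm2* and *Mybl2* and below all of them in *Mki67*. The groups do not overlap in *E2f1*, *Pcna*, *Ccnb2* and *Aurkb*.

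Among the mitotic members, the 6 genes of the cyclins, CDK1 and its phosphatases had a median of -0.68. *Ccnb2*, a B-type cyclin, stood at 439, 586 and 670.0 in the controls and 357, 245 and 252 under FF-10101, with no overlap. Its means were 565 ± 117 and 285 ± 62.8 (SD, n = 3), and its fold change was -0.98 ± 0.23, with an adjusted p of 0.229 in limma. *Ccnb1* was at 571, 992 and 1210.2 against 668, 458 and 465, and *Cdk1* at 772, 1396 and 1810.3 against 996, 626 and 672. In both, control tumors 2 and 3 were highest and control tumor 1 lay below FF-10101 tumor 1. *Ccna2*, cyclin A, had a fold change of -0.57, and *Cdc25b* and *Cdc25c*, phosphatases that activate CDK1, -0.62 and -0.50. Without control tumor 1 all 6 passed in limma, from -1.15 (*Ccnb2*) to -0.75 (*Cdc25c*), beside 9.88% of all genes called lower.

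The genes of the transcription factors B-MYB and FOXM1 were not alike in the size of the difference. *Mybl2*, which encodes B-MYB, was at 197, 666 and 712 in the controls and 267, 201 and 159 under FF-10101. Control tumor 1 was thus as low as the FF-10101 tumors, and the other two controls were far above all of them. The fold change of -1.15 ± 0.48, furthest from 0 among the members, had an adjusted p of 0.296 with all tumors. Without control tumor 1 it was -1.75, with an adjusted p of 0.00272 (limma). *Foxm1* was at 387, 805 and 649 against 484, 339.8 and 369.8, with -0.58 ± 0.28. On leaving out control tumor 1 it was -0.88 (adjusted p = 0.0174, limma), and on leaving out control tumor 2 it was -0.35.

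Of the 6 kinase and checkpoint genes, *Aurkb* and *Bub1b* did not overlap between groups, beside 9.37% of all genes. *Aurkb*, the kinase of the chromosomal passenger complex, was at 368, 365 and 431 in the controls and 299, 207 and 177 under FF-10101, and here control tumor 1 lay with its group. Its fold change was -0.80 ± 0.22 with that tumor and -0.83 without it, with adjusted p of 0.229 and 0.0404 in limma. *Bub1b*, a spindle checkpoint gene, was at 454, 720.5 and 728 against 420.1, 371 and 403. *Aurka*, the centrosome kinase, and *Bub1* had larger fold changes, -1.01 ± 0.32 and -1.03 ± 0.38, but overlapped, as control tumor 1 was at 311 and 204, below FF-10101 tumor 1. *Plk1*, polo-like kinase, was at -0.53 and *Ttk*, the checkpoint kinase MPS1, at -0.42. Leaving out single tumors moved *Ttk* from -0.77 to -0.14 (control tumors 1 and 2 left out, respectively).

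*Cdc20* and *Ube2c*, an activator and the ubiquitin-conjugating enzyme of the anaphase-promoting complex, were at -0.84 and -0.95. *Ube2c* stood at 659.6, 1186 and 1501 in the controls and 768, 484 and 432 under FF-10101. The 4 kinesins, motors that build the spindle and carry out cytokinesis, ran from -0.92 (*Kif23*) to -0.63 (*Kif11*), with *Kif20a* and *Kif2c* at -0.76 and -0.72. All 6 genes overlapped between groups, each with control tumor 1 below FF-10101 tumor 1, and all 6 passed in limma without control tumor 1, beside 9.88% of all genes called lower.

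The 4 centromere and passenger genes covered nearly the whole range of the set. *Cenpa*, the centromeric histone, was at 862, 1494 and 2212 in the controls and 894, 556 and 585 under FF-10101 (-1.10 ± 0.34). *Birc5*, survivin, was at 579.7, 830.2 and 1055 against 593, 343 and 347 (-0.95 ± 0.29). *Cenpe*, a kinetochore motor, was at 289, 666 and 601 against 577, 392 and 435, with control tumor 1 below every other tumor. Its fold change of -0.079 ± 0.32 (adjusted p = 0.92, limma) was 0.15 when control tumor 2 was left out, and leaving out control tumor 3 or FF-10101 tumor 2 gave 0.072 and 0.039, so its direction rested on single tumors. *Cenpf*, a kinetochore protein, was at -0.58, and ranged from -0.95 to -0.28 on leaving out control tumor 1 or 2.

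Of the mitotic roles, the spindle genes and the chromosome genes used as proliferation markers had medians nearest to 0, -0.48 and -0.32. *Nusap1*, which binds spindle microtubules, did not overlap between groups, at 307, 481 and 484 against 298, 279 and 292 (-0.52 ± 0.21). *Tpx2*, an activator of aurora A, and *Prc1*, of the central spindle, were at -0.70 and -0.43. *Hmmr*, a spindle protein, was at 233, 567 and 719.9 against 342, 366 and 402, with the lowest value of all in control tumor 1. Its fold change was -0.31 ± 0.38 with all tumors and 0.021 without control tumor 3. *Mki67*, the gene of the Ki-67 antigen by which dividing cells are stained, was at 668, 1463 and 1074 in the controls and 1055, 855 and 859.5 under FF-10101. Its fold change was -0.14 ± 0.27, with an adjusted p of 0.813 in limma, and -0.45 without control tumor 1, with an adjusted p of 0.106. Without control tumor 2 it was 0.12, so the direction of *Mki67* also rested on 1 tumor. *Top2a*, topoisomerase II alpha, was at 1679, 2631 and 2428 against 2195, 1263 and 1383 (-0.49 ± 0.26).

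Across the set, every FF-10101 tumor was below every control tumor in 10 of 55 members (18.2%), beside 9.37% of all genes tested. These were *E2f1*, *E2f2*, *Cdt1*, *Gins1*, *Gins2*, *Pcna*, *Ccnb2*, *Aurkb*, *Bub1b* and *Nusap1*, 6 S-phase and 4 mitotic. For these 10, the exact two-sided permutation test over tumors gave 0.1, the smallest p that 3 against 3 allow. Against control tumors 2 and 3 alone, every FF-10101 tumor was lower in 54 of 55 members, beside 25.7% of all genes. The highest of the 6 values was in control tumor 3 for 30 members and in control tumor 2 for 23. The lowest was in FF-10101 tumor 2 for 26, in FF-10101 tumor 3 for 24 and in control tumor 1 for 5. FF-10101 tumor 1 was above control tumor 1 in 45 members and above FF-10101 tumors 2 and 3 in 52. Control tumor 1 was still above both FF-10101 tumors 2 and 3 in 44 members.

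**Figure D3:**
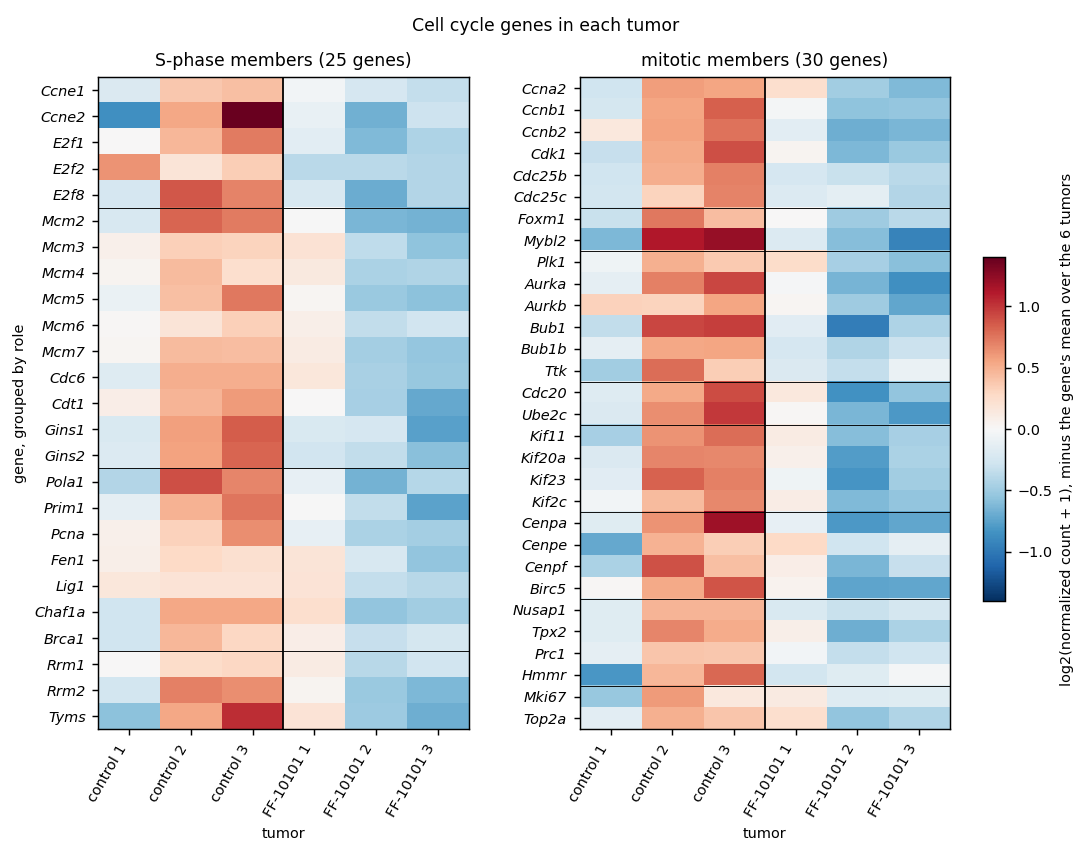
Level of each member (rows, with lines between roles) in each tumor (columns), as log2(normalized count + 1) minus the mean of that gene over the 6 tumors, red above and blue below. Control tumors 2 and 3 are red in nearly all rows, FF-10101 tumors 2 and 3 are blue, and control tumor 1 and FF-10101 tumor 1 lie between them.

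S-phase and mitotic members ordered the tumors in a like way. The mean log2 level of the S-phase members, relative to the mean of the 6 tumors, was -0.12, 0.48 and 0.58 in control tumors 1, 2 and 3 and 0.0069, -0.45 and -0.49 in FF-10101 tumors 1, 2 and 3. That of the mitotic members was -0.25, 0.60 and 0.67 and -0.0067, -0.54 and -0.47. The mitotic level of control tumor 1 lay further below that of control tumors 2 and 3 than its S-phase level did. In control tumor 1 the members' median was 63.1% of the mean of the other two controls for S-phase and 53.1% for mitotic members, and the FF-10101 means were at 56.2% and 52.9% of it. The difference between the S-phase and mitotic groups was not tested.

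Of the other genes of replication and mitosis, most leaned the same way. Among 54 other S-phase genes, 50 had a fold change below 0, with a median of -0.43, and among 64 other mitotic genes 63 did, with a median of -0.68. None passed an adjusted p of 0.05 in limma or limma-voom, while 18 and 27 were lower at an unadjusted p of 0.05 in limma, beside 7.49% of all genes. Without control tumor 1, 29 and 51 were called lower and none higher, beside 9.88% and 12% of all genes. The medians then were -0.74 and -0.98, and without control tumor 3 they were -0.27 and -0.49. The lowest of each list were *Tk1*, the thymidine kinase of the salvage pathway, at -1.26, and *Spc24*, a kinetochore gene, at -1.27. *Tk1* was at 553, 1133 and 1524 in the controls and 559, 406 and 307 under FF-10101. The highest were *Gins3* at 0.14 and *Pttg1*, securin, at 0.21. Leaving out single tumors moved them from -0.024 to 0.22 and from 0.10 to 0.27, so that the direction of *Gins3* rested on single tumors. It turned the sign of 5 other S-phase and 2 other mitotic genes. *Gins3* encodes a subunit of the same complex as *Gins1* and *Gins2*, and was at 100.2, 127 and 129.8 against 164, 116 and 116.

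The 13 genes of G1 cyclins, their kinases and upstream factors had a median of -0.29, and 10 were below 0. None passed in limma at an adjusted or an unadjusted p of 0.05, nor in limma-voom at an adjusted one. *Ccnd1*, cyclin D1, was at 2586, 5933 and 5787 in the controls and 3286, 2870.4 and 2536 under FF-10101 (-0.63 ± 0.32), with control tumor 1 again inside the FF-10101 range. *Ccnd2* and *Ccnd3*, the other D cyclins, were at 0.15 and -0.15, *Cdk4* at -0.35, *Cdk6* at 0.10, *Tfdp1*, the E2F partner, at -0.58 and *Myc* at -0.26. On leaving out single tumors *Cdk4* ran from -0.58 to -0.16, *Cdk6* from 0.013 to 0.20, *Tfdp1* from -0.9996 to -0.29 and *Myc* from -0.38 to -0.15. Without control tumor 1, 3 of the 13 were called lower, beside 9.88% of all genes. Leaving out 1 tumor at a time moved the median of the list from -0.48 (FF-10101 tumor 1 left out) to -0.16 (control tumor 3 left out). It moved 12 of the 13 fold changes by over 1.5 times and turned no sign. *Ccnd1* ran from -1.02 to -0.42 and *Ccnd2* from 0.0033 to 0.25.

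The list of inhibitors of the cycle, which also counted *Lin9*, *Lin37* and *Lin52* (at -0.32, 0.20 and 0.43), was divided. Of 17 tested, 10 were below and 7 above 0, and none passed an adjusted p of 0.05 in limma or limma-voom, while 4 were lower at an unadjusted p of 0.05 in limma, beside 7.49% of all genes. Those 4 were *Cdkn2d* and *Cdkn2c*, INK4 inhibitors of CDK4 and CDK6, *Rbl1*, the pocket protein p107, and *Pkmyt1*, a kinase that holds CDK1 inactive. *Cdkn2d* was at 304, 396 and 434 in the controls and 222, 205 and 214 under FF-10101 (-0.80 ± 0.19), with no overlap. *Rbl2*, the pocket protein p130 of resting cells, leaned the other way, at 649.5, 419 and 326 against 514, 719.8 and 768 (0.56 ± 0.28), with control tumor 1 inside the FF-10101 range. *Btg2*, an antiproliferative gene, was at 649.5, 330.4 and 376 against 658, 539.6 and 612, and *Cdkn1a*, the p21 inhibitor, at 1125, 591 and 583 against 784, 747 and 997. Control tumor 1 had the highest *Cdkn1a* of all 6 tumors. Without it, 3 inhibitors were called lower and 2 higher, beside 9.88% and 12% of all genes. Leaving out 1 tumor at a time moved 11 of the 17 fold changes by over 1.5 times. It turned the sign of *Cdkn1c*, *Rb1*, *Wee1* and *Lin37*, so the split of 10 to 7 rested in part on single tumors.

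Several cell type marker lists differed between the same tumors as the cell cycle genes, and their part in these results was not tested. Summed over 8 genes, macrophage markers were 62269 in control tumor 1, 35129 and 35711 in the other two control tumors, and 22438 to 31322 in the FF-10101 tumors. Summed over 8 genes, mesenchymal markers, which fibrosarcoma cells also express, were 233978 in control tumor 1, 80309.7 and 109054 in the other two control tumors, and 184273 to 293563 in the FF-10101 tumors. NK cell markers (4 genes) were 877 in control tumor 1, 234 and 309.7 in the other two control tumors, and 571 to 1039 in the FF-10101 tumors, and neutrophil markers (7 genes) 1982 in control tumor 1, 1927 and 2276 in the other two control tumors, and 2737 to 3197 in the FF-10101 tumors. T cell, NK cell, endothelial and mesenchymal sums were thus lowest in control tumors 2 and 3, the tumors with the highest cell cycle genes. Macrophage sums did not follow that order, being highest in control tumor 1 and lowest in FF-10101 tumor 1, and neutrophil sums were lower in all 3 control tumors than in the FF-10101 tumors. Summed over 3 genes, erythroid markers were 1185 in control tumor 1, 376 and 698 in the other two control tumors, and 468 to 1857 in the FF-10101 tumors. The neutrophil gene *Ly6g* was at 0 reads in some tumors, skeletal muscle markers summed to 2913 to 10952, and keratinocyte markers reached 919 in FF-10101 tumor 1 and at most 169 elsewhere. Markers with 0 reads in a tumor also included *Lep*, *Krt5*, *Krt14* and *Krt1*. Summed over 8 housekeeping genes, the tumors ran from 95574 to 131256, highest in control tumor 1. No marker of these lists passed an adjusted p of 0.05 in limma with all tumors. Without control tumor 1, 6 of 6 endothelial, 4 of 4 NK cell, 3 of 8 T cell, 4 of 8 mesenchymal, 4 of 6 tested neutrophil and 2 of 3 erythroid markers were called higher in the FF-10101 tumors, beside 12% of all genes. In the same fit 2 of 8 macrophage markers were called lower, beside 9.88% of all genes.

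**Figure D4:**
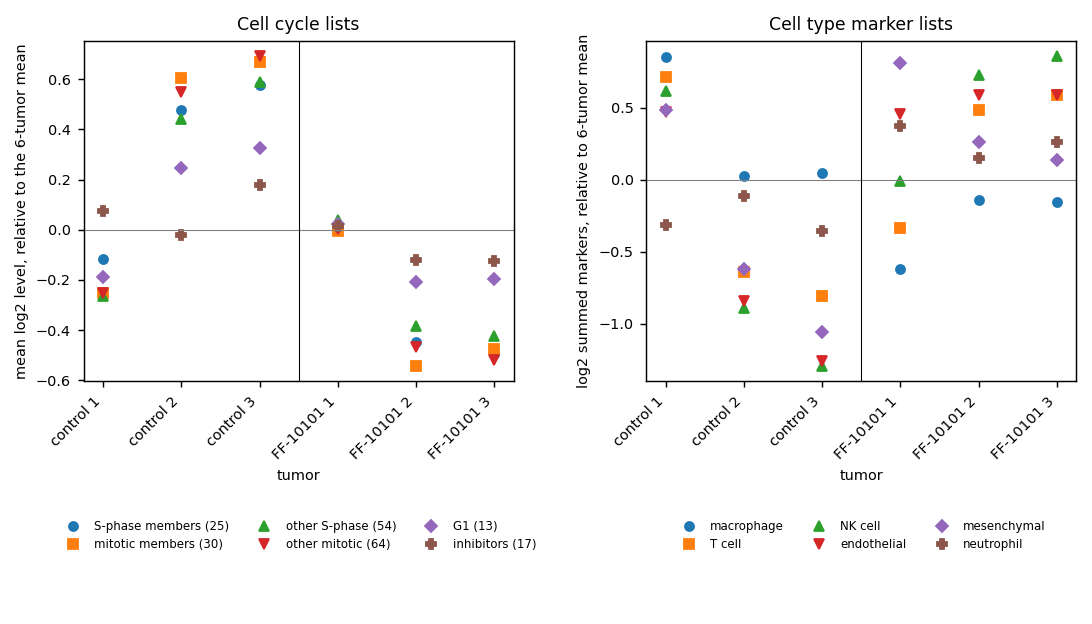
Left, mean log2 level of 6 cell cycle lists in each tumor, and right, log2 of the summed normalized counts of 6 cell type marker lists, both relative to the mean of the 6 tumors (line at 0). Control tumors 2 and 3 are highest for replication and mitosis and lowest for T cell, NK cell, endothelial and mesenchymal markers.

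Levels of the members were compared per length, as mean normalized counts per kb of the longest GENCODE vM21 transcript. *Pcna* was highest, at 1673 per kb in the controls and 1028 under FF-10101, followed by *Cenpa* at 1039 and 463. *Ccna2*, *Mcm7*, *Ube2c*, *Rrm2* and *Top2a* came next, from 538 down to 430.2 per kb in the controls. *Brca1* was lowest, at 25.7 and 20.3, below *Cenpf* and *Cdc6*. The lowest reads of any member in a tumor were 79, so all members were measured above the limit of 3 reads that a count of 0 allows.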

How the data were processed

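RNA was sequenced from whole MCA205 tumors, 3 in each of 2 groups, assigned by the treatment and replicate number in the sample labels. The labels call them biological replicates. Per the labels and the study's methods, the authors trimmed reads with fastp 0.19.5, quantified them with Salmon 1.5.1 on the GENCODE vM27 annotation (GRCm39) and used DESeq2 1.22.1. They deposited log2 values, 1 per gene and tumor, whose transformation is not given in the sources used here. The deposited log2 values have the form of a variance-stabilizing transformation, and its inverse gave whole reads for 100% of 325854 values (tolerance 1e-06) and 1 size factor per tumor. Since Salmon shares out reads between similar transcripts by estimation, near-identical copies are uncertain. The table had been planned for as normalized counts, which were thus recovered first.

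The test was limma 3.58.1 in R 4.3.3 (lmFit, eBayes with trend) on log2(normalized count + 1), a scale that understates changes of low genes, with group as the only term, over all 13963 genes with a mean of at least 10, adjusted by Benjamini-Hochberg. For single genes, an exact two-sided permutation test over tumors was added. Genes were named by matching 51484 identifiers to GENCODE vM21, whose build (GRCm38) differs from that of the authors, so the sole coordinates given are those of the RefSeq promoter windows (GRCm38.p6). The strand of the promoter windows was checked against the first 30 bases of transcripts, which lay in 38 of 51 windows on the same strand and in 0 on the other.

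Alternative settings were a block for replicate number, array weights, leaving out each tumor, pseudocounts of 0.5 and 10, a minimum mean of 50 or none, 75th percentile scaling, eBayes without trend, the deposited log2 values themselves, and limma-voom on recovered reads. The removal of length and GC trends was added after seeing the data. All 55 members may be named, as may every gene of the G1 and inhibitor lists, and of the other S-phase and mitotic lists the genes past the threshold or, with none, the highest and the lowest. The members and lists were chosen with earlier results of these data known. The steps were tested on simulated data.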

Additional observations from a re-analysis of the deposited data

How the results depend on the processing

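All 55 members kept a fold change below 0 under every alternative that kept all 6 tumors, and none passed an adjusted p of 0.05 in any of these but array weights. With 75th percentile scaling, 8 members did not overlap, and the share over all genes was not counted there. Leaving out a tumor cannot lower that count. In limma without trend, 21 members were lower at an unadjusted p of 0.05, beside 6.62% of all genes. Leaving out 1 tumor at a time, the members called ranged from 0 to 43, those at an unadjusted p of 0.05 from 8 to 53, those without overlap from 10 to 54, and the calls over all genes from 1 to 3051. The upper ends came without control tumor 1 (43, 53, 54 and 3051), where 9.88% of all genes were called lower, 17.2% were lower at an unadjusted p of 0.05 and 25.7% did not overlap. On leaving out FF-10101 tumor 1, 44 members did not overlap, beside 19.3% of all genes. Members lower at an unadjusted p of 0.05 were 8 when control tumor 2 or 3 was left out, beside 4.45% and 3.44% of all genes, and 10 and 11 when FF-10101 tumor 2 or 3 was, beside 3.47% and 3.43%. The S-phase median ranged from -0.83 to -0.52, the mitotic median from -0.93 to -0.52, and the inhibitor median from -0.33 to -0.0862, the last when FF-10101 tumor 3 was left out. *Cenpe* ranged from -0.45 to 0.15, with 0.072 and 0.039 on leaving out control tumor 3 or FF-10101 tumor 2, *Hmmr* from -0.79 to 0.021, and *Mki67* from -0.45 to 0.12.

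With array weights, all 55 members passed, adjusted and unadjusted, among 8365 genes called in either direction. The medians were then -1.11 for mitotic members, -0.87 for other S-phase genes and -0.12 for inhibitors. Calls over all genes were 17 with no minimum and 3 at a mean of at least 50. With length and GC trends removed, an alternative chosen after seeing the data, the inhibitor median was -0.38. The medians were then -0.73 for S-phase and -0.82 for mitotic members. Those of the spindle and chromosome genes were -0.64 and -0.56. *Mki67*, *Cenpe* and *Hmmr* were at -0.38, -0.29 and -0.52. The replicate numbers did not pair the tumors: same-number correlations of deviations were -0.29, -0.040 and -0.28. With the replicate number as a block, 1 gene was called over all genes, and 13 members were lower at an unadjusted p of 0.05, beside 4.02% of all genes. The cause of these differences was not tested. Every member had 79 or more reads in each tumor.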
